A study of Mus musculus with 16 samples.

Results

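The 6 regions described here are mitochondrial transfer RNA genes, TrnF, TrnV, TrnL1, TrnI, TrnQ and TrnM. They were taken by position in the mouse mitochondrial genome, and they cover 418 of 16299 positions and 1254 of 48897 possible single-base alleles. They are 6 of the 22 transfer RNA genes of that genome. The counts came from 16 bulk ATAC-seq libraries, an assay in which Tn5 transposase cuts and tags accessible DNA and in which mitochondrial DNA is read deeply. All 16 libraries came from femurs of mice aged 3 months with the genotype PolG D257A/D257A. PolG copies mitochondrial DNA, and D257A takes away its proofreading, so these mice gather mitochondrial mutations. There were 8 sorted subsets, each as replicate 1 and replicate 2. One was CD45, a marker of blood-lineage cells, and the others were named by surface markers of skeletal cell populations: CD105, CD24, CD29, CD24_CD29, 6C3, Thy_6C3 and Thy. No mice with an intact polymerase were among these samples, the sorting gates are not given, and sorted identity cannot be checked from mitochondrial counts. The labels do not say which animals, or how many, gave a library, so the tests weigh differences against a spread among libraries that may be no more than technical.

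A mitochondrial transfer RNA brings 1 amino acid to the mitochondrial ribosome and reads codons through the 3 bases of its anticodon. It folds into a cloverleaf whose arms are the acceptor stem, the D arm, the anticodon arm and the T arm. Mitochondrial messages are translated with these organelle-encoded transfer RNAs, and transfer RNA genes also punctuate the long transcripts that are cut into ribosomal and messenger RNAs. TrnF, TrnV, TrnL1, TrnI, TrnQ and TrnM carry phenylalanine, valine, leucine, isoleucine, glutamine and methionine. The methionine transfer RNA serves both the start codon and internal codons in mammalian mitochondria.

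TrnF, TrnV and TrnL1 flank the 2 ribosomal RNA genes, and TrnI, TrnQ and TrnM lie in a row between the genes ND1 and ND2. The deposited tables give their reference bases in GRCm38, and RefSeq gives the positions: TrnF MT:1-68, TrnV MT:1025-1093, TrnL1 MT:2676-2750, TrnI MT:3706-3774, TrnQ MT:3772-3842 and TrnM MT:3845-3913. TrnQ is the only one of the 6 on the reverse strand. Its last 3 bases overlap the end of TrnI and were counted with TrnI. The sequences are shown because they place each changed base in its arm. Each runs 5′ to 3′ in the sense of the transfer RNA, and capitals mark bases with an allele at a fraction of 1% or more and at least 5 counts in any of the 15 libraries other than Thy replicate 2.
TrnF: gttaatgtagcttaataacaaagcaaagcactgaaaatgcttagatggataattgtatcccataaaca
TrnV: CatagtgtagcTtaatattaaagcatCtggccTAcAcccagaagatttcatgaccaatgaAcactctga
TrnL1: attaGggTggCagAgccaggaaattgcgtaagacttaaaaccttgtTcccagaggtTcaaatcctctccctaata
TrnI: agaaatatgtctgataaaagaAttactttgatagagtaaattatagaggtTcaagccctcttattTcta
TrnQ: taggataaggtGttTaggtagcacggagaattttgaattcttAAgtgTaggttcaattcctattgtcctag
TrnM: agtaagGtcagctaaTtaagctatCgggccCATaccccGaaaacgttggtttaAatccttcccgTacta
The anticodon is bases 33 to 35 of TrnF, TrnV and TrnQ, bases 36 to 38 of TrnL1, bases 30 to 32 of TrnI and bases 31 to 33 of TrnM, counted from each gene's 5′ end. All 3 anticodon bases of TrnM are in capitals, and TrnF has no capital. The 5 anticodon-stem pairs were complete by base pairing, wobble pairs included, in every gene but TrnL1, where 4 of 5 paired.

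Mean coverage of the 6 genes ran from 4966 counts per position in CD24_CD29 replicate 2 to 59173 in CD29 replicate 1, with a median over libraries of 17584. This was 73.3% to 83.6% of each library's mean over the whole mitochondrial genome, and no position fell below 3433 counts in any library. Where nothing was counted, a fraction as high as 3 counts of the mean coverage remains possible, which is 0.0604% for CD24_CD29 replicate 2 and 0.00507% for CD29 replicate 1. Thy replicate 2 stood apart from the other 15 libraries. It had 46 counted alleles in the 6 genes, 36 of them A>C or T>G, against 1 to 11 counted alleles in the others, so results are given with and without it where it enters. Fractions of single libraries carry exact (Clopper-Pearson) 95% intervals, which cover counting error only because reads carry no molecular identifiers.

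Allele names give the reference base, the position and then the non-reference base, all on the forward strand. The allele fraction is the count over the coverage, and a fraction of at least 1% with 5 or more counts made an allele counted in that library. In replicate 1, 17 of 1254 alleles were counted in any library, and 14 of the 17 were transitions. In replicate 2, 62 were counted with Thy and 20 without it. Over the 15 libraries without Thy replicate 2, 31 alleles were counted, 2.47% of those possible. The share was 2.59% in the other 16 transfer RNA genes, with 84 counted alleles, and 2.31% at all other positions. The 6 genes therefore held counted alleles at about the share of the rest of the genome. TrnM held 9, TrnV and TrnL1 held 7 each, TrnQ held 5, TrnI held 3 and TrnF held 0 of 204 possible alleles.

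**Figure D1:**
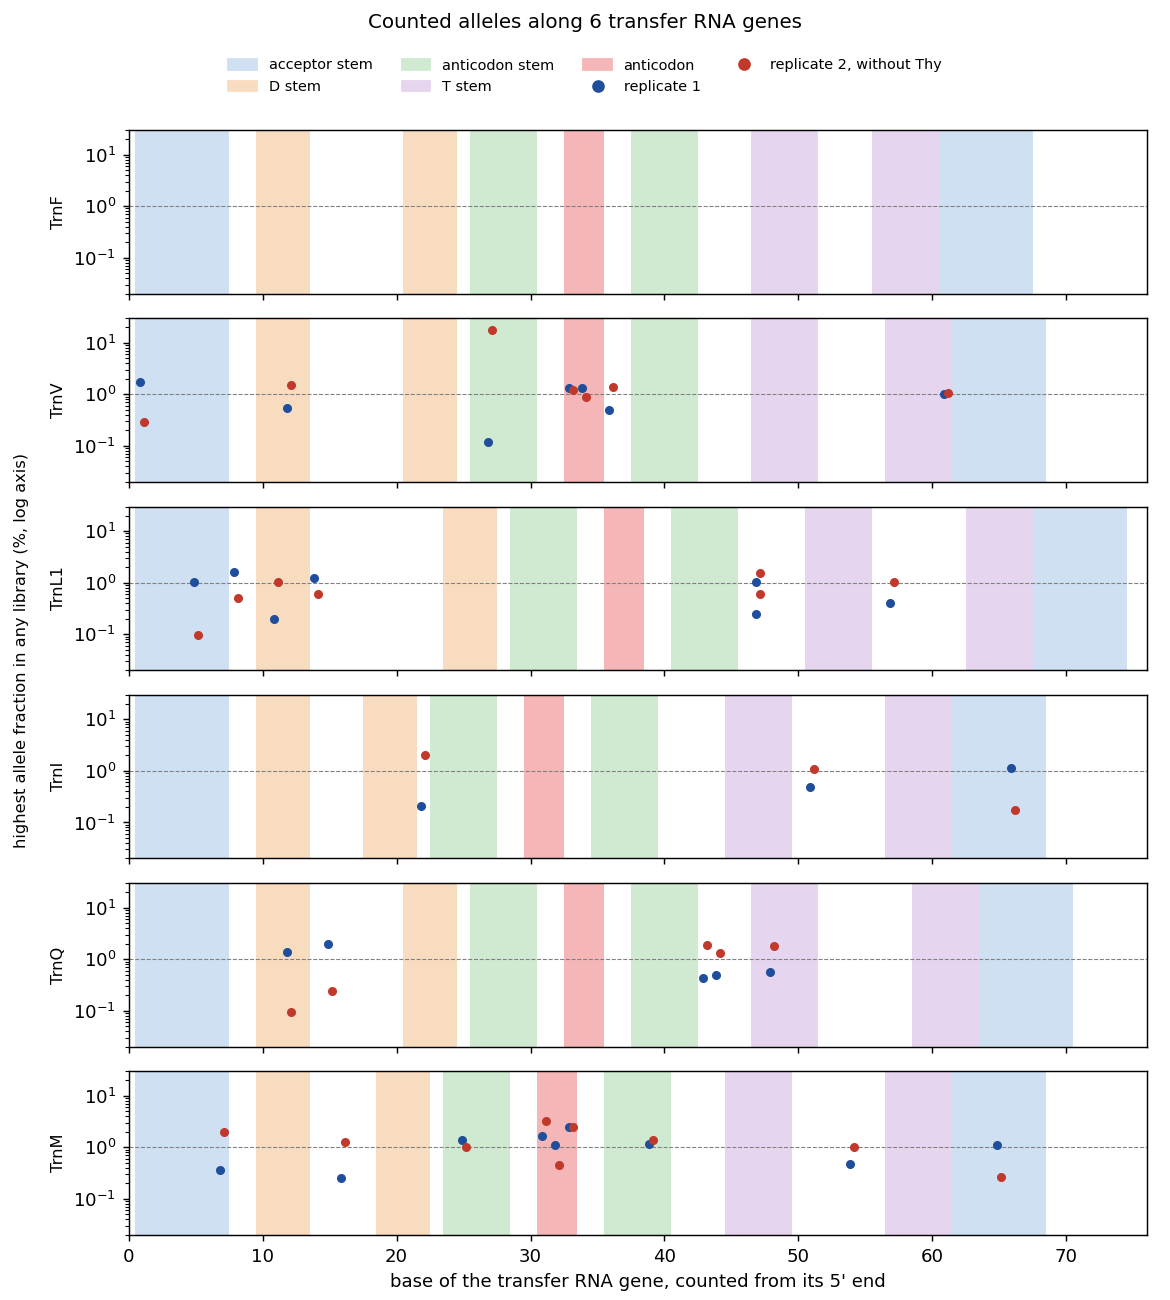
Each panel is 1 transfer RNA gene, with the base counted from its 5′ end on the x axis and, on a logarithmic y axis, the highest fraction of each counted allele in any library of replicate 1 (blue) and of replicate 2 without Thy (red). Shading marks the stems and the anticodon and the dashed line marks 1%; TrnF has no counted allele, and C1051T at base 27 of TrnV in replicate 2 lies above all others, at 17.9%.

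The most frequent allele of the 6 genes was C1051T in TrnV, the valine transfer RNA. It lies at MT:1051, base 27 of the gene, in the anticodon stem, where the C pairs with the G at base 41, and a T there leaves a wobble pair. In replicate 1 its fraction was between 0.0416% and 0.120% in the 8 libraries, with a median of 0.0896%. In replicate 2 it was between 9.81% and 17.9%, with a median of 15.2%. All 8 libraries of replicate 2 lay above all 8 of replicate 1. Within replicate 2 the highest fraction was in CD24 and the lowest in CD24_CD29, at 9.81% (95% interval 8.89% to 10.8%). CD45 replicate 2 held it at 15.6% (14.8% to 16.4%), inside the range of the other subsets, so it was found in the blood-lineage subset and in the skeletal subsets alike. The mean was 0.0820% ± 0.0334 in replicate 1 and 14.8% ± 2.42 in replicate 2 (SD, n = 8 each). The log2 odds ratio of replicate 1 over replicate 2 was -7.81, with an adjusted p of 3.53e-09 in edgeR's quasi-likelihood test. Across the whole genome 15 alleles were likewise at 1% or more in all 8 libraries of replicate 2 and below 0.5% in all 8 of replicate 1, and C1051T was the 1 among these genes. The reverse pattern held for 12 alleles of the genome and for 0 in these genes.

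The same comparison was run over every allele at 1% or more in at least 1 library, 3487 in all, with p-values adjusted over all of them by the Benjamini-Hochberg method and a threshold of 0.05. The 6 genes had 73 alleles in this test, and the rest of their 1254 alleles stayed below the filter, which favours alleles that are high in at least 1 library. In the 6 genes 5 alleles passed, 3 of them higher in replicate 1 and 2 higher in replicate 2. Among all tested alleles 5.76% passed, 2.72% higher in replicate 1 and 3.04% higher in replicate 2, so the share in the 6 genes was near that of the genome. Both shares are over tested alleles that include those let in by Thy replicate 2 alone. Without that library 31 of the 73 and 1130 of the 3487 reached the filter, and no share over these is given here. At an unadjusted p under 0.05, 10 alleles of the 6 genes and 336 of the table passed. Every library of replicate 1 lay above every library of replicate 2 for 2 of the 73 alleles and for 62 of the 3487. The reverse held for 1 of the 73 and for 63 of the 3487, so such separation was not peculiar to these genes. The labels do not say what a replicate number stands for, and libraries of 1 number may share animals, so a difference between numbers may be one between animals, batches or days, which cannot be told apart.

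**Figure D2:**
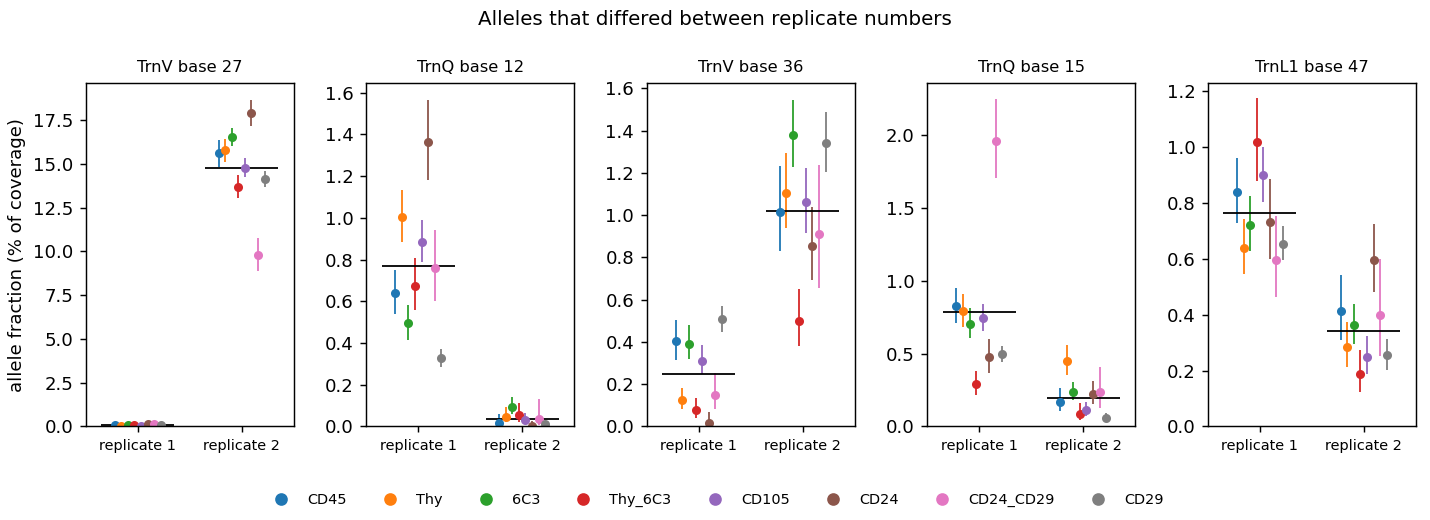
Fraction of each allele that passed between the numbers, in % of coverage on the y axis, with replicate 1 on the left and replicate 2 on the right of each panel; points are libraries coloured by subset, bars are exact 95% intervals and black lines are means of 8. From left to right the panels are C1051T, C3831T, A1060G, A3828G and T2722C, and only C1051T exceeds 2% in any library.

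The remaining 4 were at or below 2% in every library. C3831T lies in TrnQ, the glutamine transfer RNA, at base 12 in the D stem, where it is a G>A change in the sense strand and breaks the pair with base 22. Its fraction was 0.326% to 1.37% in replicate 1, with a median of 0.716%, and 0% to 0.0947% in replicate 2, with a median of 0.0322%. The groups did not overlap, but in replicate 2 CD24 had 0 counts, CD45 and CD24_CD29 had 2 each and CD29 had 3. The size of its log2 odds ratio therefore rests in part on very few counts. The mean was 0.768% ± 0.321 in replicate 1 and 0.0359% ± 0.0301 in replicate 2 (SD, n = 8 each), with a log2 odds ratio of 4.56 and an adjusted p of 3.18e-05 in edgeR. A3828G, at base 15 in the loop of the D arm of the same gene, was T>C in the sense strand. It was 0.289% to 1.96% in replicate 1, with a median of 0.725%, and 0.0556% to 0.449% in replicate 2, with a median of 0.195%. Replicate 1 was the higher in 8 of 8 subsets, although the groups overlapped, and the log2 odds ratio was 2.04 with an adjusted p of 0.00136 in edgeR.

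A1060G in TrnV is in the anticodon loop, at base 36, directly 3′ of the anticodon. It was 0.0183% to 0.506% in replicate 1, with a median of 0.231%, and 0.501% to 1.38% in replicate 2, with a median of 1.04%. Replicate 2 was the higher in 8 of 8 subsets, and the groups met only between CD29 replicate 1 and Thy_6C3 replicate 2. The log2 odds ratio was -2.39 with an adjusted p of 0.00103 in edgeR. T2722C in TrnL1, the leucine transfer RNA that reads UUA and UUG codons, lies at base 47 in the variable region. It was 0.596% to 1.02% in replicate 1 and 0.188% to 0.595% in replicate 2, so the groups lay just apart. Its log2 odds ratio was 1.22 with an adjusted p of 0.0351 in edgeR, and it passed in 11 of 23 alternative fits, with adjusted p between 0.00142 and 0.171. 2 more alleles came near the threshold, A3876G in the TrnM anticodon (adjusted p 0.0564) and T1036C in the TrnV D stem (adjusted p 0.0623), both in edgeR. A3876G passed in 7 of 23 alternative fits, with adjusted p between 0.00427 and 0.344, and T1036C passed in 4 of 23, with adjusted p between 0.00128 and 0.639.

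TrnM had the most counted alleles, and 3 of its 9 changed the 3 bases of the anticodon, written CAT in DNA. T3877G, at base 33, is the last anticodon base. It was 2.04% to 2.51% in replicate 1, with a median of 2.32%, and 2.01% to 3.35% in replicate 2, with a median of 2.23%. The 3.35% was in Thy replicate 2, and the other 15 libraries lay between 2.01% and 2.51%. The means were 2.32% ± 0.157 in replicate 1 and 2.35% ± 0.428 in replicate 2 (SD, n = 8 each), a difference within the spread. T3877G was the only allele of the 6 genes counted in all 16 libraries, and 24 alleles of the genome were. Of the 24, 21 were transversions, as T3877G is, and 17 of these lay outside annotated genes between positions 16099 and 16150. How reads were filtered and how nuclear copies of mitochondrial DNA were treated is not given in the sources used here, and their part in the fraction of T3877G was not tested. Its coefficient of variation over the 15 libraries was 6.97%, the second lowest of those 24, behind G16146T. The mean fraction of a T>G change in the 6 genes had a median of 0.0906% over the same 15 libraries, so T3877G stood far above that level.

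The other anticodon alleles of TrnM varied between libraries. C3875T, at base 31, reached 3.22% (95% interval 2.77% to 3.72%) in CD24_CD29 replicate 2. It was at 0.0550% (0.0202% to 0.120%) in CD24_CD29 replicate 1. In replicate 1 it was 1.70% in Thy_6C3 and 1.58% in Thy, and it was below 1% in the remaining 13 libraries. Its high values thus fell on different subsets in the 2 numbers. A3876G, at base 32, ran from 0.272% to 1.09% in replicate 1 and from 0.133% to 0.466% in replicate 2, and replicate 1 was the higher in 8 of 8 subsets.

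**Figure D3:**
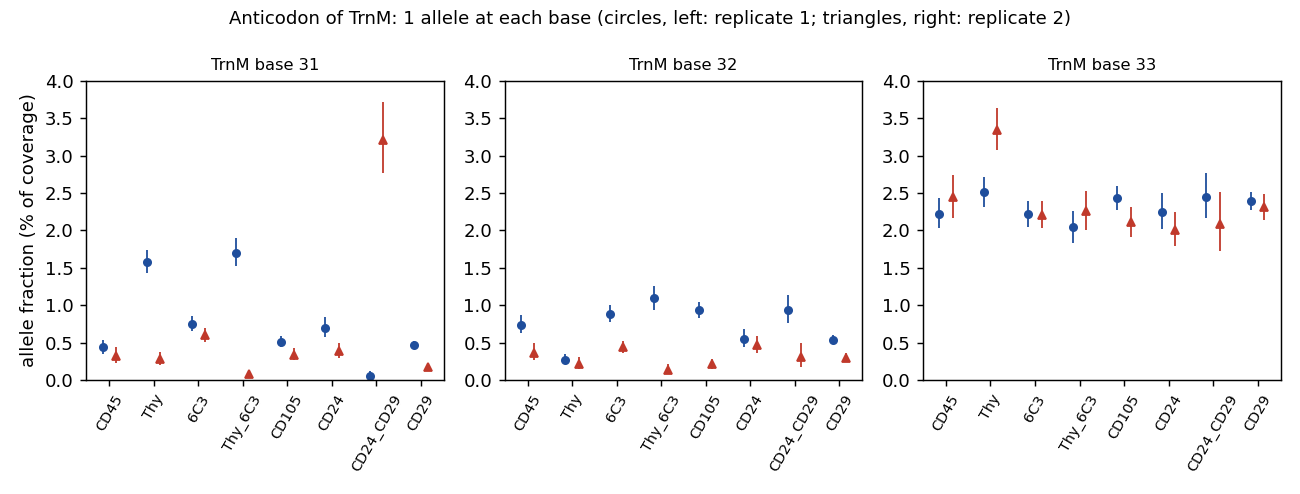
Fractions of C3875T (base 31), A3876G (base 32) and T3877G (base 33) in % of coverage on the y axis, for each subset on the x axis, with replicate 1 as blue circles on the left and replicate 2 as red triangles on the right; bars are exact 95% intervals. T3877G stays between 2.01% and 2.51% except in Thy replicate 2, while C3875T spans 0.0550% to 3.22%.

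TrnM also carried alleles at both bases of 1 anticodon-stem pair, the C at base 25 and the G at base 39. C3869T, which leaves a wobble pair, was counted in 3 of 15 libraries, at 1.37% in Thy replicate 1, 1.19% in CD29 replicate 1 and 1.02% in CD45 replicate 2. G3883A, which breaks the pair, was highest in Thy_6C3 in both numbers, at 1.15% in replicate 1 and 1.38% in replicate 2. In the other subsets it was 0.342% to 0.908% in replicate 1 and 0.248% to 0.895% in replicate 2. Neither G3883A nor C3869T passed edgeR's test in a subset contrast.

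TrnV had the other 2 anticodon alleles. T1057C, at base 33, was counted in Thy replicate 1 at 1.34% and in CD29 replicate 2 at 1.19%. A1058T, at base 34, had the highest mean of the gene in replicate 1, at 0.876% ± 0.350, against 0.675% ± 0.243 in replicate 2 (SD, n = 8 each), and was counted in 6C3, CD24 and CD29 of replicate 1. The anticodons thus held 5 of 54 possible alleles, 9.26%, all of them in TrnM and TrnV and 3 of them transitions. The 5 include T3877G, the transversion counted in all 16 libraries. The 3 transitions were 5.56% of the 54, beside 24 of 1254, 1.91%, over all elements.

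**Figure D4:**
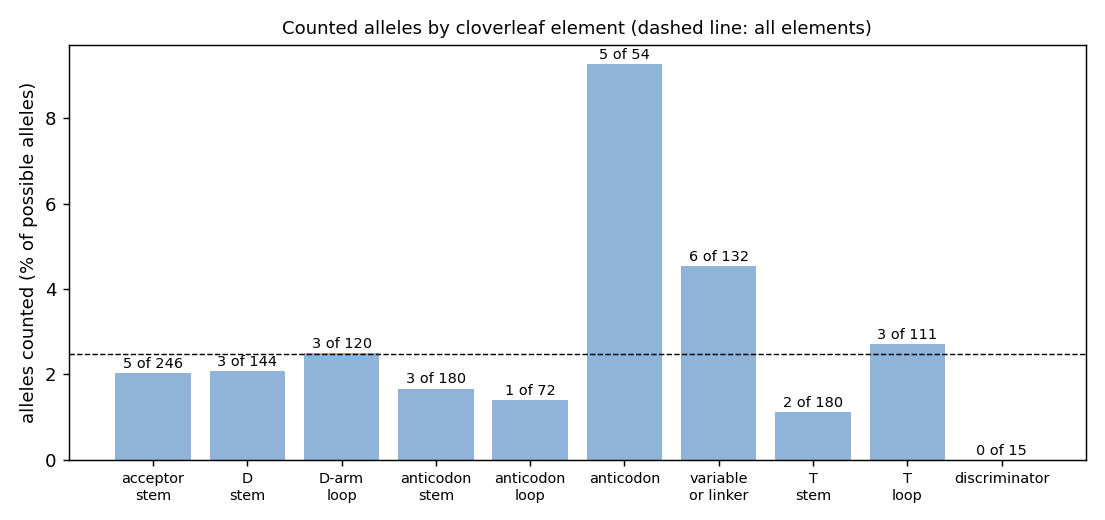
Counted alleles in each cloverleaf element of the 6 genes as % of the possible alleles on the y axis, over the 15 libraries without Thy replicate 2, with counts above the bars and the share of all elements, 2.47%, as a dashed line. The anticodon has 5 of 54 and the discriminator base before the 3′ end has 0 of 15.

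Across the cloverleaf the 4 stems held 13 of 750 possible alleles, 1.73%, and the loops, linkers and ends held 18 of 504, 3.57%. Counted transitions were 12 in the stems and 12 outside them, 1.60% and 2.38% of the same possible alleles, so the gap was smaller for transitions. By arm, counted alleles were 5 of 246 in the acceptor stem, 3 of 144 in the D stem, 3 of 180 in the anticodon stem and 2 of 180 in the T stem. The variable region and linkers held 6 of 132, the T loop 3 of 111 and the loop of the D arm 3 of 120. Of the stem alleles, 5 turned a Watson-Crick pair into a wobble pair, out of 112 that could, which is 4.46%. These were C1025T, C1051T and A1085G in TrnV, C2686T in TrnL1 and C3869T in TrnM. The other 8 broke a Watson-Crick pair, out of 560 that could, which is 1.43%. Only a transition can turn a Watson-Crick pair into a wobble pair, whereas the 560 also include transversions. Of the 8 that broke a pair, 7 were transitions, beside the 5 that left a wobble pair. The shares of 4.46% and 1.43% are therefore not matched by type of change and do not rank the effects on pairing. These shares describe alleles of 6 genes and carry no test.

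The comparison between sorted subsets asked whether an allele's fraction in a subset, over its 2 libraries together, differed from the mean of the other 7. It did not require the 2 libraries of a subset to agree. In edgeR no allele of the 3487 passed for any subset against the mean of the other 7. The test over all subsets at once also called 0 (0% of the table in each of these 9 comparisons), so 0 alleles of the 6 genes passed. With 2 libraries per subset, the lack of a call does not show that a difference is absent. At an unadjusted p under 0.05 the Thy comparison had 33 members, alleles of the 6 genes, and 1702 alleles of the whole table, CD24_CD29 had 9 and 220, Thy_6C3 had 5 and 110, and CD24 had 1 and 43. The test over all subsets had 2 members and 53 alleles. CD45, 6C3, CD105 and CD29 had 0 members, beside 4, 17, 6 and 31 alleles of the table. In DESeq2 the members called were 37 for Thy, 3 for CD24_CD29, 1 for Thy_6C3 and 1 for all subsets at once, with 2025, 71, 9 and 18 of the whole table. Those for CD24_CD29 include T3800A and G3851A, which were high in its replicate 2 alone. They were at 1.90% and 1.95% there, against 0.221% and 0.305% in its replicate 1. Without Thy replicate 2, 31 of the 73 members tested and 1130 of the 3487 alleles reached the filter. The rest entered the test only because Thy replicate 2 was high, so a low p for Thy follows in part from the filter. The counts for Thy are therefore no support for alleles of that subset. A further edgeR fit left out A>C and T>G alleles, the excess of Thy replicate 2. In it, 6 of the 37 members still tested had an unadjusted p under 0.05 for Thy. These 37 are the members tested in that fit, not those called in DESeq2.

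A1085G in TrnV, at base 61 in the T stem, had the smallest unadjusted p of the 6 genes between subsets, 0.00205 (adjusted p 0.886) in edgeR. In CD24 it was 1.03% in replicate 1 and 1.05% in replicate 2, the highest of each number. In the other 7 subsets it was at most 0.736%. In Thy_6C3 it was 0.172% in replicate 1 and 0.0969% in replicate 2, and in CD24_CD29 it was 0.212% and 0.106%, so these 2 subsets were lowest in both numbers. For CD24 the log2 odds ratio over the other subsets was 1.53 with an adjusted p of 0.978 in edgeR, and for Thy_6C3 it was -1.88 with an adjusted p of 0.935. The highest subset and the lowest pair of subsets were thus the same in both numbers, while those between changed places, and the difference did not hold against the spread between libraries after adjustment in edgeR. In DESeq2 A1085G passed between subsets, with an adjusted p of 0.00370, and for Thy_6C3, with an adjusted p of 0.0475. For CD24 it passed in no alternative but the edgeR fit without Thy replicate 1. That fit leaves Thy replicate 2, the library that stood apart, as the only Thy library, so it adds little for CD24.

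A3795G in TrnQ, in the T stem, had the smallest p for CD24_CD29, with 0.0560% in replicate 1 and 0.150% in replicate 2, against 0.178% to 1.80% in the other subsets. The CD24_CD29 values rest on 6 and 8 counts, in the shallowest library of each number. The log2 odds ratio was -2.49 with an unadjusted p of 0.00329 and an adjusted p of 0.406 in edgeR. In DESeq2 the adjusted p was 0.0242. The 1.80% was in CD29 replicate 2. The smallest p of a member was for T1057C in 6C3, T2732C in CD105, T3799C in CD29, A1085G in CD45 and A3709C in Thy, with an adjusted p of 0.0984 for A3709C and of 0.985 or more for the others in edgeR. A3709C in Thy was at 0.161% in replicate 1 and 1.11% in replicate 2, so 1 library set it apart.

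Alleles counted in a single library were mostly those of CD24_CD29. Over the 15 libraries 21 alleles of the 6 genes were counted in exactly 1, and 15 of these, 71.4%, were in the CD24_CD29 libraries, 7 in replicate 1 and 8 in replicate 2. Over the whole genome the share was 429 of 809, 53.0%. In CD24_CD29 replicate 1 they included A3828G at 1.96%, C1025T in the TrnV acceptor stem at 1.73% and T2683C in the TrnL1 linker at 1.58%. In CD24_CD29 replicate 2 they included A3727G in TrnI at 2%, G3851A in the TrnM acceptor stem at 1.95%, T3800A in TrnQ at 1.90% and T2722A in TrnL1 at 1.54%. C3875T, above, was highest there too but was also counted in other libraries. The CD24_CD29 libraries were the shallowest of each number in these genes, at 9919 counts per position in replicate 1 and 4966 in replicate 2, and the part of depth or cell number was not tested.

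Alleles recurred between the numbers in part. Without Thy replicate 2, 6 of the 17 alleles counted in replicate 1 (35.3%) and of the 20 counted in replicate 2 (30%) were the same, namely T3877G, G3883A, T1057C, A1085G, C3869T and C3875T. For the whole genome 116 alleles were shared, 23.5% of those counted in replicate 1 and 15.4% of those in replicate 2. The shared alleles of the 6 genes lay in TrnM and TrnV alone, and 4 of the 6 were in the anticodon or its stem in TrnM.

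The load is the summed non-reference fraction averaged over positions. Its median over the 16 libraries was 0.427% in the 6 genes, 0.450% in the other 16 transfer RNA genes and 0.455% at all other positions. With no mice with an intact polymerase, mutation and read error cannot be told apart in this load. In the 6 genes it ran from 0.371% to 0.462% in replicate 1 and from 0.397% to 0.477% in replicate 2 without Thy, and Thy replicate 2 had 1.09%. Transitions alone gave a median of 0.150% in the 6 genes, 0.128% in the other 16 transfer RNA genes and 0.130% at all other positions. The 0.150% includes C1051T, and the higher load of the 6 genes lay in replicate 2. In replicate 1 the transition load was 0.116% to 0.209% in the 6 genes and 0.128% to 0.208% at all other positions. In replicate 2 it was 0.147% to 0.217% and 0.128% to 0.181%. TrnV had a transition load of 0.127% in replicate 1 and 0.395% in replicate 2 without Thy (medians). Without C1051T these medians were 0.126% and 0.155%, so C1051T made up most of that gap. In the other 5 genes the medians of the 2 numbers differed by far less. In TrnF, for example, they were 0.119% in replicate 1 and 0.0989% in replicate 2 without Thy.

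**Figure D5:**
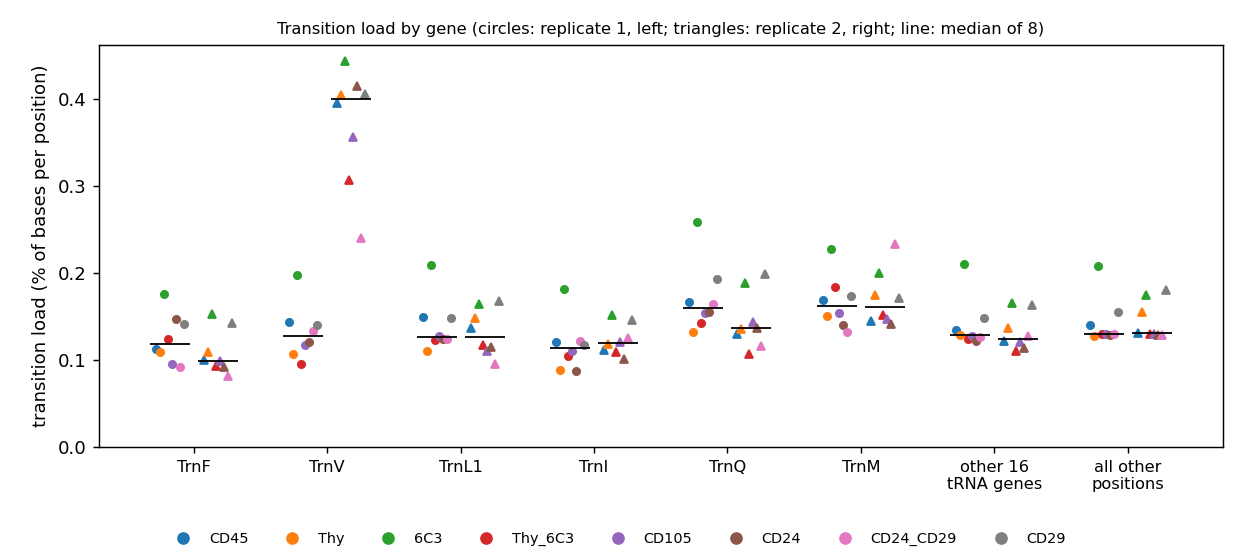
Transition load in % of bases per position on the y axis for each of the 6 genes, the other 16 transfer RNA genes and all other positions, with replicate 1 as circles on the left and replicate 2 as triangles on the right of each place, coloured by subset; lines are medians of 8 libraries. TrnV is the gene whose numbers lie apart, at 0.0959% to 0.198% in replicate 1 and 0.240% to 0.444% in replicate 2.

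Genes with few or no counted alleles still had a low level of non-reference bases. The highest allele of TrnF by mean was C60A, at 0.429% to 0.559% in replicate 1 and 0.359% to 0.781% in replicate 2, with the 0.781% in Thy. The highest of TrnI was G3751T, at 0.849% ± 0.0687 in replicate 1 and 0.857% ± 0.229 in replicate 2 (SD, n = 8 each). In TrnL1 the highest in replicate 2 was T2721G, at 0.630% ± 0.594, where Thy had 2.09% and the other 7 libraries had at most 0.527%. T3903G in TrnM was likewise 2.81% in Thy replicate 2 and at most 0.582% in the others.

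Directly outside the genes, T2674A in the ribosomal RNA gene mt-Rnr2 lies 2 bases before TrnL1. It averaged 9.44% ± 1.48 in replicate 1 and 0.370% ± 0.188 in replicate 2 (SD, n = 8 each), with a log2 odds ratio of 4.95 and an adjusted p of 1.99e-07 in edgeR. The highest alleles within 5 bases of the other genes averaged below 1% in both numbers. Coverage was uneven at the start of the numbering. The first base of TrnF had 68.3% to 76.1% of the coverage of its base 68, and TrnV had the lowest coverage of the 6 genes, a median of 63.8% of the genome mean.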

How the data were processed

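The deposited tables of the authors hold raw whole-number counts for 16 libraries: 1 table has the coverage at every mitochondrial position, and the other has how often each of the non-reference bases was read there. The submitters' processing notes name BWA 0.7.17, cutadapt 2.10 and bcl2fastq 2.20, and the builds mm10 and GRCm38, with no role or order. How reads were filtered on quality, whether duplicates were removed and how nuclear mitochondrial copies were treated is not given in the sources used here, and each can change a low fraction. Base counts at a position do not depend on the Tn5 offset of read ends.

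Groups came from the sample titles. Transfer RNA positions and gene IDs came from the RefSeq annotation of GRCm38.p6, and stems were found from the sequence by fixed arm lengths of 7, 4, 5 and 5 pairs (acceptor, D, anticodon and T stem). Alleles were tested with edgeR 4.0.16 (R 4.3.3, quasi-likelihood test, threshold 0.05), with the non-reference and reference counts of a library as a pair of columns, a term per library and, in the non-reference column, terms for subset or for subset and replicate number. DESeq2 1.42.0 and a quasi-binomial model were alternatives, beside other filters, the replicate block and leaving out each library. The fit was tested on simulated data. Counting, intervals and figures used Python 3.11.15 with pandas 2.3.3, numpy 2.4.6, matplotlib 3.10.9 and scipy 1.17.1.

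Named alleles were those counted in all 8 libraries of a number, the highest mean per gene and number, those that passed a test, the highest allele counted in a single library of a number, the highest within 5 bases of a gene's ends and the smallest p of a contrast without a call. Further alleles named for their place in the anticodon or a stem, for a p near the threshold or as counted in 1 library were chosen after their values were seen. The members, lists and rules were chosen with earlier results of these data known. Libraries of the same number deviated together: the correlation of the replicate 1 minus replicate 2 differences (arcsine square root of the fraction) between 2 subsets was 0.343 to 0.863 over 28 pairs of subsets, all above 0.1. The pairing rests on these data and the shared number in the titles.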

Additional observations from a re-analysis of the deposited data

Results flagged for a closer look

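Within each replicate number, 28 sets of 8 values were examined for a library far from the other 7 by Dixon's test, and 15 were flagged. The test flags about 1 in 20 sets by chance if sets are chosen without regard to their values. The alleles flagged here had the highest mean of their gene in that number, which 1 outlying library can bring about. The sets also overlap, since the load of the genes together contains the load of each gene. The 15 flags therefore cannot be weighed against that rate.

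The load of Thy replicate 2 lay apart for the 6 genes together, at 1.09% against 0.397% to 0.477% in the other 7 libraries of its number. It did so in each gene, at 0.845% in TrnF, 1.26% in TrnV, 1.06% in TrnL1, 1.09% in TrnI, 1.10% in TrnQ and 1.16% in TrnM. The same library stood apart for T3877G at 3.35% (others 2.01% to 2.44%), C60A at 0.781% (others 0.359% to 0.495%), T2721G at 2.09% (others 0.349% to 0.527%) and G3751T at 1.41% (others 0.707% to 0.839%). The mean fraction of an A>C change in the 6 genes was 0.632% in Thy replicate 2 and 0.0554% to 0.101% in the other 15 libraries.

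CD24_CD29 replicate 1 stood apart for A3828G at 1.96% (others 0.289% to 0.825%) and for C60A at 0.559% (others 0.429% to 0.483%). CD29 replicate 2 stood apart for A3795G at 1.80% (others 0.150% to 0.868%). Mean coverage of the 6 genes in CD29 replicate 1, 59173 counts per position, lay above the 9919 to 31111 of the other libraries of that number.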

How the results depend on the processing

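With a threshold of 0.5% or 2% in place of 1%, the alleles of the 6 genes counted in replicate 1 numbered 119 or 1 instead of 17, and in replicate 2 they numbered 409 or 7 instead of 62. Without A>C and T>G changes 26 were counted in replicate 2, and those counted in all 8 libraries were 0 in replicate 1 and 1 in replicate 2. At 0.5% the alleles counted in all 8 libraries were 3 in replicate 1 instead of 1 and 4 in replicate 2 instead of 2. Leaving out 1 library gave 10 to 17 counted alleles in replicate 1, with 10 without CD24_CD29 replicate 1, and 20 to 62 in replicate 2, with 20 without Thy replicate 2. The median load was 0.427%, 0.0361% from alleles at 1% or more, 0.150% from transitions, and 0.427% to 0.428% without any 1 library. Of the members called between numbers, 3 higher in replicate 1 became 0 and 2 higher in replicate 2 became 1 at 2%, where fewer alleles were tested, and leaving out 1 library gave 2 to 4 and 2 to 3. C1051T, C3831T, A1060G and A3828G passed in every alternative in which they were tested. For Thy the members called were 0 in edgeR, 37 in DESeq2, 42 in a quasi-binomial model and 0 to 44 with 1 library left out, the 44 without Thy replicate 1, which leaves Thy replicate 2 alone and assumes that it varies like the other groups. The same omission gave 41 between subsets (range 0 to 41) and 5 for CD24 (range 0 to 5). DESeq2 called 3 for CD24_CD29, 1 for Thy_6C3 and 1 between subsets, and CD24_CD29 had 1 without its replicate 1 (range 0 to 1). The replicate block left 0 members called in each of the 9 subset comparisons and changed no other call of a member. Most members tested reached the filter through Thy replicate 2 alone, so the calls for Thy are no support for alleles of that subset. The cause of these changes was not tested. Depth limits fractions below about 0.0604% in the shallowest library.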
